A study of Mus musculus with 8 samples.

Results

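Chemokines of the CXC and CX3C families were described in whole aortas of ApoE-/- mice with and without the natriuretic peptide receptor C (NPRC). The set consisted of 10 genes chosen by name, namely Cxcl1, Cxcl2, Cxcl5, Cxcl9, Cxcl10, Cxcl11, Cxcl14, Cxcl16, Cx3cl1 and Pf4, each taken as the locus whose gene names include it. They occupied 9 of the 48607 loci in the table, since Cxcl10 and Cxcl11 were counted as 1 locus. Of these 9 loci, 5 (Cxcl1, Cxcl14, Cxcl16, Cx3cl1 and Pf4) reached 1 FPKM (fragments relative to transcript length and library depth) in 3 or more libraries and were tested, and the other 4 did not. Levels are given in FPKM, in deposited counts, or in CPM (counts relative to library depth only), and fold changes are of NPRC-/-ApoE-/- against ApoE-/-.

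Poly(A) RNA was sequenced from the entire aorta of mice fed a Western diet. All mice lacked apolipoprotein E, which clears remnant lipoproteins from plasma, and the compared group also lacked NPRC in every tissue after a CRISPR frameshift in exon 1 of its gene Npr3 on a C57BL/6 background. By title, 5 libraries were ApoE-/- (1 to 5) and 3 were NPRC-/-ApoE-/- (1 to 3). The genotype entered separately in the labels named the other genotype for 4 of the 8 libraries, which were titled ApoE-/- 4 and 5 and NPRC-/-ApoE-/- 1 and 2, so the fold changes of the chemokines are given under both labels. The level of Npr3 does not check the titles, because a frameshift can leave the transcript in place. It was 0.62 to 1.69 FPKM in the titled ApoE-/- libraries and 1.13 to 1.39 FPKM in those titled NPRC-/-ApoE-/- (log2 fold change 0.10, SE 0.28, adjusted p = 0.90 by edgeR), and the log2 fold change by genotype entry was 0.16 (SE 0.28). Total counts were between 62969165 and 86693276 per library.

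Chemokines are small secreted proteins that bind G protein-coupled receptors on leukocytes and direct their migration. CXC chemokines with a Glu-Leu-Arg motif (Cxcl1, Cxcl2 and Cxcl5) attract neutrophils through Cxcr2, and those induced by interferon-gamma (Cxcl9, Cxcl10 and Cxcl11) attract activated T cells through Cxcr3. Cxcl16 and Cx3cl1 (fractalkine) are made as membrane proteins that hold cells carrying Cxcr6 or Cx3cr1 and are released by ADAM proteases, and in the atherosclerotic artery they are known from endothelium, smooth muscle and macrophages.

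By title, all 9 chemokine loci had lower fitted levels in the NPRC-/-ApoE-/- libraries, and 3 of the 5 tested loci, Cxcl14, Cxcl1 and Cxcl16, fell by the criterion of the study (fold change over 2 or under 0.5, unadjusted p under 0.05). Of all 20506 tested loci, 2.39% met this criterion in the same direction and 50.9% had a log2 fold change below 0. The median log2 fold change was -1.16 over the 5 tested chemokine loci and -0.01 over all tested loci. By genotype entry, 0 of the 5 loci met the criterion with edgeR, with limma or with DESeq2. With edgeR, 0.263% of all tested loci met it in the lower direction. In either direction, 95 of the 20506 loci met it with edgeR, 107 with DESeq2 and 23 to 81 with limma. Likewise 0 of the 5 had an unadjusted p under 0.05 with edgeR, against 0.697% of all tested loci lower and 0.614% higher. Here 4 of the 5 were below 0, against 51.0% of all tested loci, and the medians were -0.06 and 0.00. In each of the other gene lists described, 0 tested genes had an unadjusted p under 0.05 by genotype entry with edgeR. No chemokine locus had an adjusted p under 0.05 with edgeR under either label, where adjusted values of the tested chemokines were 0.20 to 0.64 by title and 1.00 by genotype entry. In the aorta as a whole, fewer cells of a type and less RNA per cell cannot be told apart.

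**Figure D1:**
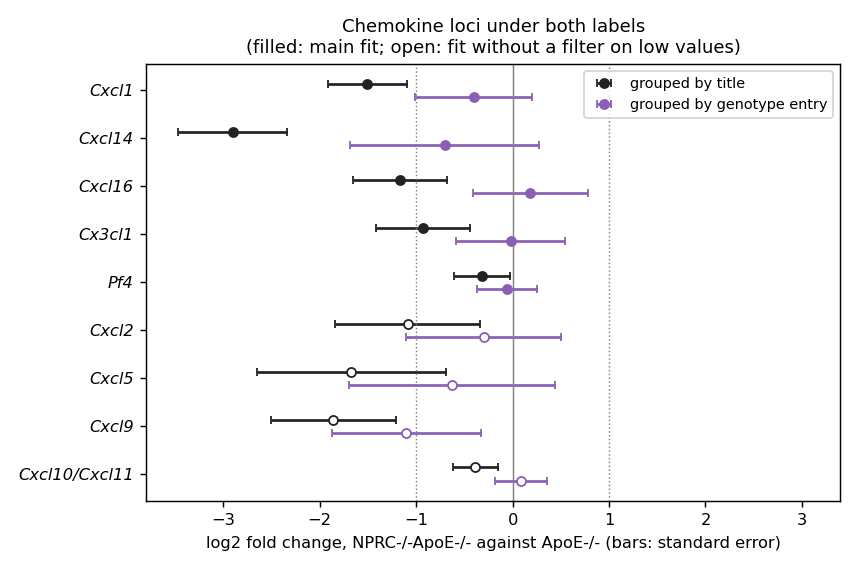
Log2 fold change of each chemokine locus (x axis, NPRC-/-ApoE-/- against ApoE-/-, bars are the standard error) when 8 libraries are grouped by title (black) or by genotype entry (purple); filled points are tested loci, open points come from the fit without a filter on low values, and dotted lines mark a fold change of 2 or 0.5. All 9 black points lie below 0, with Cxcl14 at -2.90, while the purple points lie between -1.10 and 0.18.

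Cxcl1 and Cxcl2 are close paralogs that recruit neutrophils, and their genes are neighbours on the plus strand of chromosome 5 (chr5:90891241-90893115 and chr5:90903871-90905938 in GRCm38). Both promoters are shown because they carry the same 11 bases, and Cxcl10 is shown because it holds a closely related site together with an interferon-type element. The sequences are from RefSeq (GRCm38.p6) and run 5′ to 3′ on the strand of the gene, and 7 of the 10 genes were in that table. Capitals mark matches to the NF-kB consensus and, in Cxcl10, the first capitals mark the core of an interferon-stimulated response element, the letters TTTC repeated after a gap of 2 bases, on the other strand.
Cxcl1, chr5:90891125-90891235, plus strand: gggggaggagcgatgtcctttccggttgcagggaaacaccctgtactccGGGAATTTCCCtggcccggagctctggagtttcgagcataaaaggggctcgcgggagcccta
Cxcl2, chr5:90903779-90903859, plus strand: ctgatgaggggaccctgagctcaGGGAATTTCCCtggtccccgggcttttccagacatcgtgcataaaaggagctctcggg
Cxcl10, chr5:92348979-92349109, minus strand: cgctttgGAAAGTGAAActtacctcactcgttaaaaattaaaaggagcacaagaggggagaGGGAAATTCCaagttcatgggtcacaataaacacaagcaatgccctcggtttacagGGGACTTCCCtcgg
In the 250 bases before the start, the NF-kB consensus was present in 3 of the 7 chemokine promoters (Cxcl1, Cxcl2 and Cxcl10) and in 3.9% of all 32851 promoters, counting both strands. These 3 promoters share 2 overlapping runs of 10 bases on either strand, GGGAAATTCC, which is itself an NF-kB match, and AGGGAAATTC, which were in 0.0974% and 0.07% of all promoters and were picked because they are shared. The match lies 71 to 61 bases before the start in Cxcl1 and 97 to 87 bases before it in Cxcl2. A match is a description of letters and does not show binding.

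Cxcl1 was measured at 5.7, 9.46, 8.98, 7.01 and 2.77 FPKM in titled ApoE-/- libraries 1 to 5, and at 2.51, 1.82 and 2.77 FPKM in those titled NPRC-/-ApoE-/- 1 to 3. The 3 NPRC-/-ApoE-/- values lay close together at the low end, and the groups overlapped through the library titled ApoE-/- 5 alone. Group means were 6.78 ± 2.71 FPKM (SD, n = 5) and 2.37 ± 0.491 FPKM (SD, n = 3). The log2 fold change by title was -1.51 (SE 0.41, unadjusted p = 0.0050, adjusted p = 0.26 by edgeR). It remained past the unadjusted threshold in each of the 8 fits that left out 1 library, with values from -1.71 to -1.31. By genotype entry the log2 fold change was -0.40 (SE 0.61).

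Cxcl2 and Cxcl5 were low and were tested only in a fit without the filter on low values, which covered 44689 loci. Cxcl2 had 120, 121, 193, 237 and 45 counts in the titled ApoE-/- libraries and 179, 16 and 25 counts in those titled NPRC-/-ApoE-/-. Cxcl5 (chr5:90759360-90761624), which also signals through Cxcr2, had 112, 184, 61, 109 and 51 counts against 90, 0 and 19. For both genes the libraries titled NPRC-/-ApoE-/- 2 and 3 were below every other library, whereas NPRC-/-ApoE-/- 1 was within the range of the titled ApoE-/- libraries. The 0 among 62969165 counts allows up to 3 counts, or 0.0476 CPM, by counting error alone. The log2 fold changes were -1.09 (SE 0.75) and -1.67 (SE 0.98), with unadjusted p = 0.18 and 0.12 by edgeR. By genotype entry they were -0.30 (SE 0.80) and -0.63 (SE 1.07). With each library left out in turn they ranged from -2.73 to -0.63 and from -3.48 to -1.08. The lower ends were reached without the library titled NPRC-/-ApoE-/- 1, with adjusted p = 0.11 and 0.18 (the adjusted p ranged from 0.11 to 0.85 and from 0.18 to 0.79 with each library left out in turn). The receptor Cxcr2 was below the filter, at 0.06 to 0.62 FPKM in the titled ApoE-/- libraries and 0.06 to 0.32 FPKM in the others.

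The neutrophil markers had uneven levels. Ly6g, which defines mouse neutrophils, was 0 to 0.12 FPKM in every library, while S100a8 was 0.66 to 5.89 FPKM. Of 5 tested markers only Csf3r, the receptor for granulocyte colony-stimulating factor, fell by the criterion (log2 fold change -1.01 by title and -0.27 by genotype entry). In this direction 2.39% of all tested loci met it. By title the rest were Mmp8 at -0.76, Retnlg at -0.43, S100a8 at -0.28 and S100a9 at 0.33, none with an unadjusted p under 0.05 by edgeR. The summed level of the 8 markers was 12.8 to 36.1 CPM in the titled ApoE-/- libraries and 7.93 to 28.4 CPM in those titled NPRC-/-ApoE-/-. Genes of the NF-kB pathway, which is known to induce Cxcl1 and Cxcl2, had log2 fold changes below 0 by title in 10 of 10 tested cases with a median of -0.37, and by genotype entry in 7 of 10 with a median of -0.15. Over all tested loci, 50.9% were below 0 by title and 51.0% by genotype entry. By title 2 of the 10, Nfkbiz (-0.96) and the cytokine gene Il1b (-2.25), had an unadjusted p under 0.05 by edgeR. At this threshold 7.13% of all tested loci were lower. Il1b also met the criterion, as did 2.39% of all tested loci in this direction, and Nfkbiz did not. By genotype entry Nfkbiz was at -0.41 and Il1b at -0.54, and 0 of the 10 had an unadjusted p under 0.05. Il1b was 1.47, 4.16, 5.7, 4.09 and 0.96 FPKM in the titled ApoE-/- libraries and 1.6, 0.24 and 0.27 FPKM in those titled NPRC-/-ApoE-/-. The transcription factor subunits Nfkb1 (3.8 to 4.99 against 3.4 to 4.11 FPKM) and Rela (5.17 to 7.58 against 4.9 to 5.92 FPKM) had overlapping levels.

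**Figure D2:**
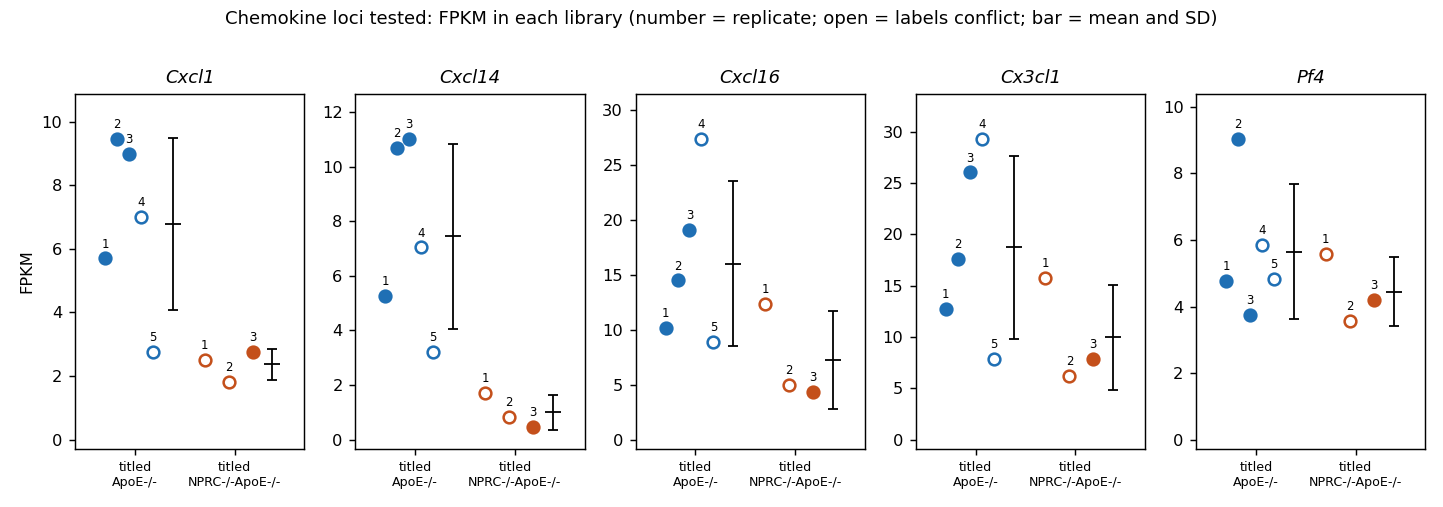
FPKM (y axis) of the 5 tested chemokine loci in each library, by title, with the replicate number above each point; open points are the 4 libraries whose genotype entry names the other genotype, and the bar shows the mean and SD of the titled group. Only Cxcl14 separates the titled groups, at 3.22 to 11.02 FPKM against 0.46 to 1.71 FPKM.

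Of the interferon-induced ligands, Cxcl9 was low, and the locus of Cxcl10 and Cxcl11 failed the level filter, which used FPKM. Cxcl9 (chr5:92321347-92328622, minus strand) had 106, 275, 369, 108 and 139 counts in the titled ApoE-/- libraries and 115, 38 and 21 counts in those titled NPRC-/-ApoE-/-. The highest counts were in ApoE-/- 2 and 3 and the lowest in NPRC-/-ApoE-/- 3 and 2, while NPRC-/-ApoE-/- 1 had about the level of ApoE-/- 1 and 4. In the fit without a filter the log2 fold change was -1.86 (SE 0.64, unadjusted p = 0.016, adjusted p = 0.39 by edgeR), which met the criterion there. In that fit 2287 of all 44689 loci met it by title, in either direction. Without NPRC-/-ApoE-/- 2 or 3 the unadjusted p by edgeR was 0.055 and 0.057. By genotype entry the log2 fold change was -1.10 (SE 0.77).

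Cxcl10 and Cxcl11 were merged into a locus of 17387 bases (chr5:92346638-92364024, minus strand) that also overlaps Art3 and Gm2673 on the plus strand, so reads of the genes cannot be separated. Cxcl11 is classed as a polymorphic pseudogene in the GENCODE M21 annotation. The locus had 428, 414, 331, 381 and 410 counts in the titled ApoE-/- libraries and 398, 165 and 363 counts in those titled NPRC-/-ApoE-/-. A single library, NPRC-/-ApoE-/- 2, was low, and the others were within 331 to 428 counts. The log2 fold change was -0.39 (SE 0.23, unadjusted p = 0.13 by edgeR) by title and 0.09 by genotype entry. From counts, library totals and the FPKM of 0.12 to 0.28, an apparent length of 22.0 kilobases was derived, which exceeds the locus itself. This derived length was also above the spliced length for Cxcl1, at 2.25 kilobases against 1871 bases. The spliced transcripts have 2230 bases for Cxcl10 and 3794 bases for Cxcl11. The FPKM of this locus therefore cannot be set beside that of the other chemokines, although it decided that the locus was not tested. In CPM the locus was at 2.61 to 6.10 over the 8 libraries, against 3.15 to 7.74 for Pf4, which was tested.

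**Figure D3:**
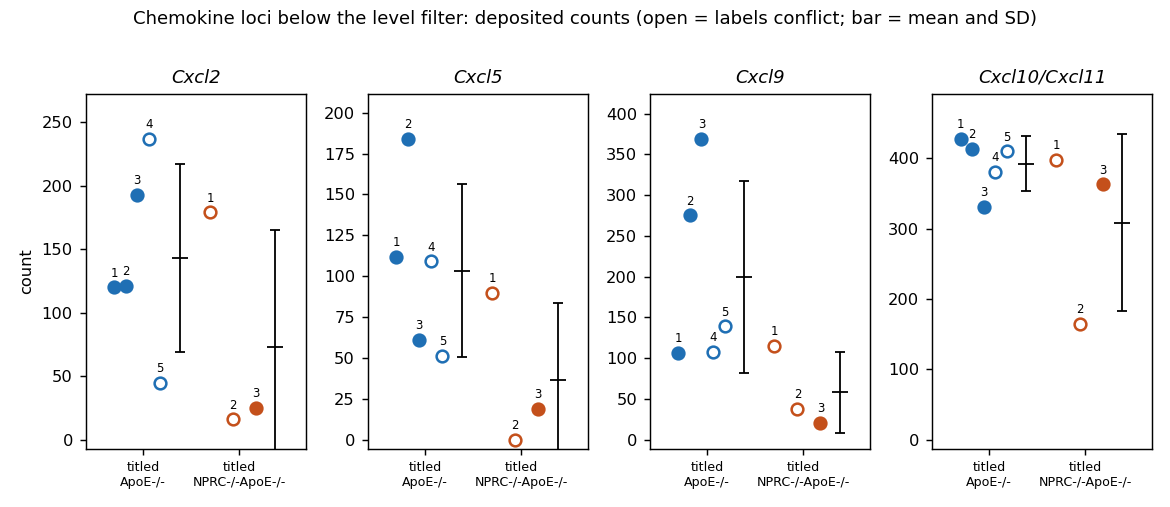
Deposited counts (y axis) of the 4 chemokine loci below the level filter in each library, by title, with the replicate number above each point; open points are the 4 libraries with conflicting labels, and the bar shows the mean and SD. NPRC-/-ApoE-/- 2 and 3 are lowest for Cxcl2, Cxcl5 and Cxcl9, and NPRC-/-ApoE-/- 2 is lowest for the Cxcl10/Cxcl11 locus at 165 counts.

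Their receptor Cxcr3, a marker of activated T cells, was 0.56, 1.44, 1.37, 1.16 and 0.43 FPKM in the titled ApoE-/- libraries and 0.47, 0.11 and 0.07 FPKM in those titled NPRC-/-ApoE-/-. It met the criterion by title (log2 fold change -2.17, SE 0.69, adjusted p = 0.29 by edgeR; -0.48 by genotype entry), and the groups overlapped through ApoE-/- 5 and NPRC-/-ApoE-/- 1. Of the T cell markers, 3 of 9 were tested. Cd4 fell by the criterion (log2 fold change -1.56 by title and 0.28 by genotype entry), as did 2.39% of all tested loci in this direction. It was 1.95 to 2.85 FPKM in the titled ApoE-/- libraries and 0.48 to 1.28 FPKM in the others. Trac and Lck, also tested, were at -0.44 and -0.68 by title (unadjusted p = 0.21 and 0.13 by edgeR) and -0.20 and 0.45 by genotype entry. The summed level of the 9 markers was 22.5 to 44.2 CPM in the titled ApoE-/- libraries and 13.8 to 30.4 CPM in the others. Cd4 is also carried by mouse macrophages and dendritic cells at lower levels. Of the invariant T cell chain genes, Cd3e was 0.41 to 1.19 FPKM against 0.17 to 0.42 FPKM. Cd3d was 0.22 to 1.13 FPKM against 0.24 to 0.51 FPKM. Ifng itself was listed at 0 to 0.09 FPKM.

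Cxcl14, a chemokine of epithelial and stromal cells that acts on monocytes and dendritic cells, differed most between the titles. The gene lies on the minus strand of chromosome 13 (chr13:56288643-56296551), and its promoter is shown because it holds, on the other strand, the same response element core as that of Cxcl10, marked in capitals.
Cxcl14, chr13:56296701-56296751, minus strand: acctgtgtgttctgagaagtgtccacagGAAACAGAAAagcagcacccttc
The response element core was in 2.98% of all promoters and, among the 7 chemokine promoters, in Cxcl10 and Cxcl14. The letters TATAAA were in 12.4% of all promoters and, among the chemokines, in Cx3cl1 and Cxcl9.

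The level of Cxcl14 was 5.28, 10.68, 11.02, 7.04 and 3.22 FPKM in titled ApoE-/- libraries 1 to 5, compared with 1.71, 0.83 and 0.46 FPKM in those titled NPRC-/-ApoE-/- 1 to 3. Every library titled NPRC-/-ApoE-/- was below every library titled ApoE-/-, which held for no other chemokine and, in this direction, for 3.69% of the tested loci (0.566% by genotype entry). Group means were 7.45 ± 3.39 FPKM (SD, n = 5) and 1 ± 0.642 FPKM (SD, n = 3). The log2 fold change by title was -2.90 (SE 0.56, unadjusted p = 0.00060, adjusted p = 0.20 by edgeR), and with each library left out in turn it was between -3.50 and -2.56, with an unadjusted p of at most 0.0038. By genotype entry the groups overlapped at 0.83 to 11.02 against 0.46 to 7.04 FPKM, and the log2 fold change was -0.70 (SE 0.98). In the 4 libraries without a label conflict, where the lone NPRC-/-ApoE-/- library is assumed to vary like the others, the value was -4.20 with an adjusted p of 0.20 by edgeR (1.97e-06 to 0.73 over all alternatives).

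Fibroblast markers had lower values by title as well. All 7 had log2 fold changes below 0 by title with a median of -0.86, against 50.9% of all tested loci below 0. An unadjusted p under 0.05 was found for 2 of the 7 (7.13% of all tested loci were lower at this threshold), and 0 met the criterion with edgeR. By genotype entry, 6 of the 7 were below 0 with a median of -0.10, and 0 had an unadjusted p under 0.05. Their summed level was 5408 to 16535 CPM in the titled ApoE-/- libraries and 3166 to 8560 CPM in those titled NPRC-/-ApoE-/-. The part of fibroblasts in the level of Cxcl14 was not tested.

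**Figure D4:**
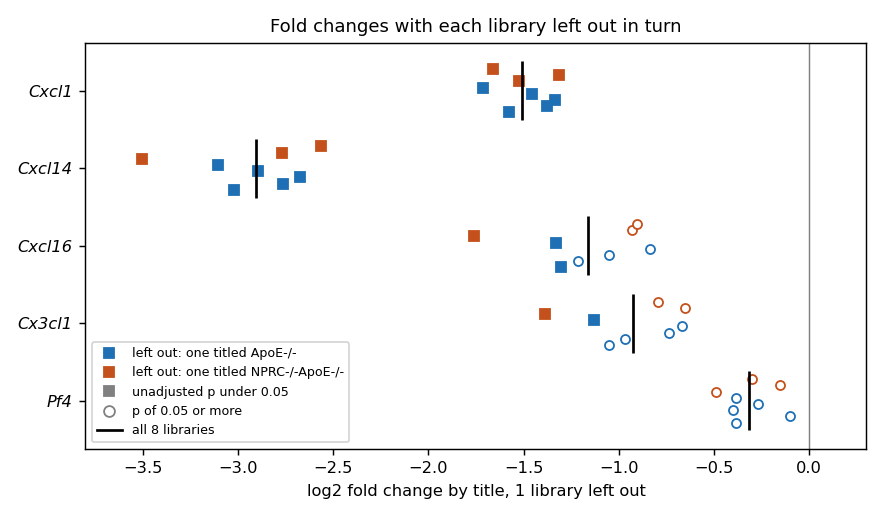
Log2 fold change by title (x axis) of the 5 tested chemokine loci with each of the 8 libraries left out in turn, with filled squares where the unadjusted p is under 0.05, open circles otherwise, colour for the title of the library left out, and a black line for all 8 libraries. Cxcl1 and Cxcl14 have 8 filled squares each, and Cxcl16 has 3.

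Cxcl16, the ligand of Cxcr6 and a scavenger receptor for oxidised lipoprotein on macrophages, lies on the minus strand of chromosome 11 (chr11:70453983-70459984), where Zmynd15 overlaps it on the plus strand. It was 10.15, 14.52, 19.09, 27.42 and 8.93 FPKM in the titled ApoE-/- libraries and 12.37, 5.03 and 4.36 FPKM in those titled NPRC-/-ApoE-/-. The libraries titled NPRC-/-ApoE-/- 2 and 3 were below all others, and NPRC-/-ApoE-/- 1 exceeded ApoE-/- 1 and 5. The log2 fold change by title was -1.16 (SE 0.49, unadjusted p = 0.040, adjusted p = 0.34 by edgeR). It was not past the unadjusted threshold when ApoE-/- 2, 3 or 4 or NPRC-/-ApoE-/- 2 or 3 was left out (unadjusted p by edgeR of 0.052 to 0.14), and without NPRC-/-ApoE-/- 1 it was -1.76. By genotype entry the log2 fold change was 0.18 (SE 0.59) with all libraries and -0.89 without ApoE-/- 4. Cxcr6 ranged only from 1.39 to 1.74 FPKM over the 8 libraries, with a log2 fold change of 0.00 (SE 0.14).

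Cx3cl1, on the plus strand of chromosome 8 (chr8:94772009-94782427), had the highest FPKM of the chemokines in 7 of the 8 libraries. It was 12.75, 17.62, 26.02, 29.3 and 7.9 FPKM in the titled ApoE-/- libraries and 15.76, 6.24 and 7.89 FPKM in those titled NPRC-/-ApoE-/-. The groups overlapped, since ApoE-/- 5 was at the level of NPRC-/-ApoE-/- 3 and NPRC-/-ApoE-/- 1 was above ApoE-/- 1. The log2 fold change was -0.93 (SE 0.49, unadjusted p = 0.090, adjusted p = 0.43 by edgeR) by title and -0.02 (SE 0.57) by genotype entry. With each library left out in turn, the value by title ranged from -1.39 to -0.65 and the unadjusted p by edgeR from 0.024 to 0.26. It was past the threshold without ApoE-/- 5 or without NPRC-/-ApoE-/- 1, and not in the other 6 fits. Its receptor Cx3cr1, carried by monocytes and macrophages, was 0.49 to 5.93 FPKM against 0.49 to 2.21 FPKM, with a log2 fold change of -1.39 (SE 0.81, adjusted p = 0.47 by edgeR) by title and -0.13 (SE 0.89) by genotype entry.

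The proteases that release both ligands, Adam10 and Adam17, had log2 fold changes of -0.38 (SE 0.19) and -0.28 (SE 0.17) by title, neither with an unadjusted p under 0.05. Of the 5 shedding and trimming proteases, 2 fell by the criterion, against 2.39% of all tested loci in this direction. They were Ctss, the lysosomal cathepsin S, with a log2 fold change of -1.25 (SE 0.54, adjusted p = 0.36 by edgeR), and Dpp4, the dipeptidyl peptidase that trims the N-terminus of Cxcl9, Cxcl10 and Cxcl11, at -1.02 (SE 0.23, adjusted p = 0.22 by edgeR). Dpp4 was 0.72 to 1.56 FPKM in the titled ApoE-/- libraries and 0.47 to 0.64 FPKM in those titled NPRC-/-ApoE-/-, without overlap. Over all tested loci, 3.69% were lower without overlap in CPM. By genotype entry, 0 of the 5 proteases had an unadjusted p under 0.05 by edgeR.

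Macrophage markers had lower values by title as well. All 8 had log2 fold changes below 0 by title with a median of -1.03, against 50.9% of all tested loci below 0. An unadjusted p under 0.05 was found for 3 of the 8 (7.13% of all tested loci were lower at this threshold), and Fcgr1 (-1.46) and C1qa (-1.37), an Fc receptor and a complement component, met the criterion, as did 2.39% of all tested loci in this direction. By genotype entry all 8 were below 0 with a median of -0.17, and 0 had an unadjusted p under 0.05. Their summed level was 1350 to 3992 CPM in the titled ApoE-/- libraries and 895 to 2095 CPM in those titled NPRC-/-ApoE-/-. The defining marker Adgre1 was 14.04 to 39.75 FPKM against 7.92 to 23.64 FPKM. Of 7 tested markers of resident macrophages, only 3 were below 0 by title (Folr2 at -0.88, Mrc1 at -0.63 and Gas6 at -0.51). Each of these had an unadjusted p under 0.05 by edgeR, against 7.13% of all tested loci lower. The rest were Lyve1 at 0.47, Cd163 at 0.17, Cbr2 at 0.09 and F13a1 at 0.00, and the list had a median of 0.00. By genotype entry 6 of the 7 were below 0 and 0 had such a p. Of the markers of endothelium, another source of Cx3cl1, 0 of 7 had an unadjusted p under 0.05 by edgeR, with a summed level of 1145 to 1428 CPM against 1178 to 1270 CPM. All 7 smooth muscle markers were higher with an unadjusted p under 0.05, against 6.51% of all tested loci, with a summed level of 5792 to 7643 CPM against 7365 to 13965 CPM. By genotype entry, 0 of these 7 had such a p, with a median log2 fold change of 0.21 against 0.66 by title. Of the tested adipocyte, skeletal muscle and erythroid markers, 0 had an unadjusted p under 0.05 by edgeR. The part of these cell types in the chemokine levels was not tested.

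Pf4 (chr5:90772435-90773383), the chemokine of platelet alpha granules that is also made by some tissue macrophages, varied least among the tested chemokines. It was 4.76, 9.04, 3.76, 5.86 and 4.83 FPKM in the titled ApoE-/- libraries and 5.58, 3.56 and 4.19 FPKM in those titled NPRC-/-ApoE-/-. Only ApoE-/- 2 stood above the range of the other 7 libraries. The log2 fold change was -0.32 (SE 0.29, adjusted p = 0.64 by edgeR) by title and -0.06 (SE 0.31) by genotype entry. Of the platelet and megakaryocyte markers, 4 of 10 were tested and 0 had an unadjusted p under 0.05 by edgeR, with a summed level of 240 to 328 CPM against 243 to 345 CPM. Levels within the list were uneven. Gp9 and Gp6, which are restricted to the platelet lineage, were 0.11 to 0.46 and 0 to 0.05 FPKM. The platelet granule chemokine Ppbp was 0.14 to 3.09 FPKM, Itga2b and Gp1bb, at loci shared with other genes, were 2.27 to 3.03 and 1.46 to 4.04 FPKM, and the integrin Itgb3, which other vascular cells also express, was 13.66 to 26.07 FPKM.

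Among the other CXC ligands, 3 of 6 were tested. Cxcl13, which attracts B cells, fell by the criterion (log2 fold change -2.33, SE 0.71, adjusted p = 0.28 by edgeR), from 0.29 to 3.24 FPKM in the titled ApoE-/- libraries to 0.17 to 0.47 FPKM in the others, and the groups overlapped. Cxcl12, the stromal ligand of Cxcr4 and Ackr3, had a log2 fold change of -0.94 (SE 0.30, unadjusted p = 0.012, adjusted p = 0.29 by edgeR) at 5.61 to 12.39 against 4.02 to 6.31 FPKM. Cxcr4 also fell by the criterion (log2 fold change -1.31, SE 0.56, adjusted p = 0.36 by edgeR), whereas the scavenging receptor Ackr3 had a value of -0.13 (SE 0.15). By genotype entry the log2 fold changes were -0.86 for Cxcl13, -0.13 for Cxcl12, -0.06 for Cxcr4 and 0.09 for Ackr3. Of the 7 tested receptors, 6 had log2 fold changes below 0 by title (50.9% of all tested loci), 3 had an unadjusted p under 0.05 (Cxcr3, Cxcr4 and the locus shared by Ackr1 and Cadm3, against 7.13% of all tested loci) and 2 met the criterion (2.39% of all). By genotype entry 5 of the 7 were below 0 and 0 had an unadjusted p under 0.05.

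**Figure D5:**
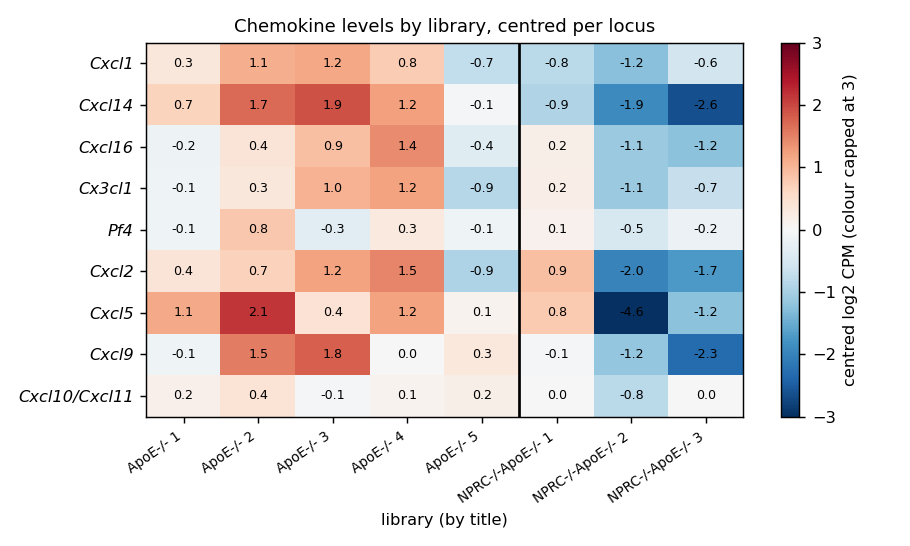
Log2 CPM of each chemokine locus (rows) in each library (columns, by title), centred on the mean of the locus over 8 libraries; red is above and blue below that mean, with the colour capped at 3. NPRC-/-ApoE-/- 2 is lowest for 6 loci and NPRC-/-ApoE-/- 3 for the other 3.

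Over all 8 libraries, the extremes of the chemokines fell in few libraries. NPRC-/-ApoE-/- 2 had the lowest CPM of 6 chemokine loci and NPRC-/-ApoE-/- 3 that of the other 3, and the highest level was in ApoE-/- 2, 3 or 4 for 3 loci each. How often these libraries were extreme over all loci was not counted, so this is not shown to be particular to chemokines. By FPKM, the macrophage marker Adgre1 was also lowest in NPRC-/-ApoE-/- 3 and the fibroblast marker Lum in NPRC-/-ApoE-/- 2. The endothelial markers were mixed. Cdh5 and Tie1 were lowest in NPRC-/-ApoE-/- 3, Vwf in ApoE-/- 5, and Pecam1, Tek and Kdr in ApoE-/- 4. Emcn was equally low in ApoE-/- 3 and NPRC-/-ApoE-/- 2. The ratio of highest to lowest CPM was 23.9 for Cxcl14, 18.8 for Cxcl9 and 12.1 for Cxcl2, between 4.97 and 6.24 for Cx3cl1, Cxcl1 and Cxcl16, and 2.46 for Pf4 and 2.34 for the Cxcl10/Cxcl11 locus, and is not given for Cxcl5 because of its count of 0. Profiles were compared by the root mean square difference of log2 CPM over the 8 libraries, each centred on its own mean. The closest pairs of chemokine loci were Cxcl10/Cxcl11 with Pf4 (0.26) and Cxcl16 with Cx3cl1 (0.27). The first pair are the chemokine loci that varied least (SD of log2 CPM 0.35 and 0.41), and this measure is small between any flat profiles.

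Among 19929 loci, the nearest profiles to Cxcl16 were the lysosomal protease Ctsb (0.14) and the leukocyte receptor Cd84 (0.15), against a median of 0.91. Those nearest to Cx3cl1 were the matrix protein gene Ltbp2 (0.060) and Slc11a1, a metal transporter of macrophage phagosomes (0.12), against a median of 0.85. Cxcl1 was nearest to the phosphodiesterase gene Pde10a (0.16) and to Isg15 (0.20), an interferon-stimulated ubiquitin-like protein, against a median of 0.93 over all loci. Cxcl14 was nearest to the adhesion molecule gene Chl1 (0.36) and to Cxcr3 (0.40), against a median of 1.60. Pf4 was nearest to a locus shared by Mpc2 and Adcy10 (0.12) and to the replication factor gene Rfc4 (0.13), against a median of only 0.49. These distances describe 8 libraries, with no test.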

How the data were processed

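Reads of whole mouse aorta were trimmed (cutadapt 1.9 and FastQC are named in the submitters' processing notes, with build GRCm38), mapped with HISAT2 and assembled with StringTie by the authors. The authors deposited whole-number counts per assembled locus, not normalized, and FPKM (fragments counted relative to transcript length and library depth). How counts were derived, and whether strand was used, is not given in the sources used here. The table had 0 columns without a sample.

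The 8 libraries were grouped by title and, separately, by genotype entry. A locus was tested if 3 or more libraries reached 1 FPKM (20506 loci), using edgeR 4.0.16 in R 4.3.3 (TMM, quasi-likelihood test, Benjamini-Hochberg adjustment). The criterion (fold change over 2 or under 0.5, unadjusted p under 0.05) is that of the study's methods. log2 CPM used a prior count of 2. Alternatives used limma 3.58.1, DESeq2 1.42.0, other filters and scalings, and left-out libraries. The test was checked on simulated data. Precision is limited by the number of libraries (biological coefficient of variation 0.327). The study's methods describe groups of mice of equal size, whereas the titles give 5 and 3 libraries. The labels do not tie a library to an animal, so p-values measure the spread between libraries. Any 2 libraries differed by more than sampling noise.

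The chemokines, other lists and tests were chosen with earlier results of these data known. For each tested chemokine the 2 nearest profiles are named, and other genes of the lists are named where they meet the criterion or define a cell type, or were chosen after their values were seen. Promoters are from RefSeq, searched over 250 bases before the start. Cx3cl1 had a second small locus, which was left out. The result of 1 gene list is not reported here.

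Libraries with the same replicate number did not deviate together (correlations -0.27 to -0.01). So few pairs cannot exclude a pairing, and the libraries were treated as unpaired.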

Additional observations from a re-analysis of the deposited data

Results flagged for a closer look

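Among 18 groups of chemokine values checked, 2 held a library far from the others, and chance flags about 1 in 20 groups. Both are the library titled NPRC-/-ApoE-/- 2 within the 5 libraries entered as ApoE-/-. Its Cxcl2 level was -1.84 log2 CPM, against 0.54 to 1.37 in the other 4. Its Cxcl5 level was -5.26 log2 CPM, which stands for 0 counts, against -0.26 to 1.45 in the other 4. By title no library stood apart among the 5 titled ApoE-/- libraries, and groups of 3 were not checked.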

How the results depend on the processing

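By title, 2 to 4 of the 5 tested chemokine loci met the criterion under every alternative with these 5, also with each library left out (2 to 4). In the fit without a filter 4 of 9 did. By genotype entry 0 did under any alternative. By title the count was 2 with a replicate block and 2 in the same 6 libraries without it. Whether the replicate numbers pair the libraries is not known. Adjusted p-values by title depended on the tool. DESeq2 gave 0.012 for Cxcl1 and 1.97e-06 for Cxcl14. Limma with array quality weights gave 0.037, 0.026 and 0.049 for Cxcl1, Cxcl14 and Cxcl16, while edgeR gave none under 0.05 for a chemokine. Of all 20506 tested loci, 650 had an adjusted p under 0.05 with DESeq2, 1168 with limma with these weights and 0 with the main edgeR fit. The cause was not tested. Over all alternatives the adjusted p was 0.012 to 0.76 for Cxcl1 and 0.049 to 0.78 for Cxcl16. All log2 fold changes by title stayed below 0. By genotype entry some changed sign. Cxcl16 was -0.13 and -0.10 with limma at pseudocounts of 0.1 and 1 and -0.39 with array quality weights, and with a library left out it was between -0.89 and 0.60. With a library left out, Cx3cl1 was between -0.97 and 0.31 and Pf4 between -0.21 and 0.20. Over all loci, 712 met the criterion by title, 1815 in the 4 libraries with the same genotype in both labels, 175 with limma on log2(FPKM + 1), and 403 to 1635 with a library left out. Leaving out libraries in the fit without a filter was chosen after seeing the data. Counts under about 100 limit Cxcl2, Cxcl5 and Cxcl9.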
